A study of Mus musculus with 16 samples.

Results

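R-loops that resist RNase R were compared between XPO4 knockout (KO) and wild-type (WT) NIH/3T3 cells, an established mouse embryonic fibroblast line. An R-loop is a stretch of DNA in which an RNA strand pairs with one DNA strand and leaves the other single-stranded, and the monoclonal antibody S9.6 binds the DNA:RNA hybrid. XPO4 (exportin 4) is a nuclear export receptor, and circular RNAs (circRNAs) are closed molecules made by back-splicing. RNase R is an exonuclease that degrades linear RNA from its end and leaves circular RNA intact, so hybrids that remain after the treatment are taken to hold circular RNA and are called ciR-loops.

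The members were the 4 lists, of 16 samples in the series, that the labels give as immunoprecipitates treated with RNase R. They comprised 2 replicates of the KO and 2 replicates of the WT. The methods describe the same steps for both genotypes and do not say whether the libraries were prepared together. Genomic DNA was cut with the restriction enzymes MseI, DdeI, AluI and MboI, treated with RNase R and pulled down with S9.6 (DRIP-seq). The knockout was made by CRISPR-Cas9 in NIH/3T3 cells and is described as a single KO cell line. Neither the labels nor the methods say whether replicates came from separate cultures, so a p-value measures the spread between these libraries, which may be technical. A peak is an interval where the authors' caller found more fragments than expected at a q limit of 0.001, its summit is the position of greatest height, and its fold enrichment is the summit height over the expected level, each with 1 added. The lists hold no expression values, and the fibroblast label was not checked with markers.

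Replicate 1 and replicate 2 of the KO held 6372 and 5996 ciR-loop peaks, against 271 and 352 in the WT. Each list is its own library, and its file does not give the sequencing depth. The read totals stated by the authors overlapped between the genotypes for these immunoprecipitates. For the RNase R-treated inputs they were higher in both KO libraries than in both WT libraries. None of these totals entered a calculation here. The height and the expected level of every peak were therefore recovered from its fold enrichment and its p-value. The lowest expected level, which is the caller's uniform background, was 0.924 and 0.890 fragments per position in the KO and 0.425 and 0.558 in the WT. The shortest peak, which follows the fragment length the caller used, was 233 bp in both KO lists and 306 and 307 bp in the WT. The background level and the shortest peak thus moved with genotype, and their part in the differences below was not tested beyond the scaled counts given here. After KO heights were scaled to the WT background, 1853 and 3347 KO peaks remained, still above both WT lists. With 2 lists against 2, an exact two-sided permutation test cannot give a p below 0.33. That was the p of each of 16 measures among 17 tested, with an adjusted value of 0.354, and the p of the intron share was 1, so no comparison could pass a threshold of significance.

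Reference sequences around summits of 5 regions show what the ciR-loops sat on. Each is 201 bases of the plus strand of GRCm38 (RefSeq GRCm38.p6), centred on a summit, in lower case. The first was called in all 4 lists and lies in an intron of Sos2, an exchange factor that activates Ras, which holds none of the sites of the 4 enzymes (TTAA for MseI, CTNAG for DdeI, AGCT for AluI and GATC for MboI).
Sos2 intron, chr12:69654097-69654297: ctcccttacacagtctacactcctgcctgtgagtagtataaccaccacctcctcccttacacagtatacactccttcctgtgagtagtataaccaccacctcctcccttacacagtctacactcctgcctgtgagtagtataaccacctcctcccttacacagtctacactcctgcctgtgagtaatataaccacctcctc
The next was a satellite array in all 4 lists, where the WT fold was higher, and it holds no recognition site either.
Satellite array of chromosome 9, chr9:3003357-3003557: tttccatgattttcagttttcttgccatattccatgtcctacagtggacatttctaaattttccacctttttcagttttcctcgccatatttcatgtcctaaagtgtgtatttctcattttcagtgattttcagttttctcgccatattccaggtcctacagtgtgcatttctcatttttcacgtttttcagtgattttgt
The following pair had the first and the third highest folds among the regions called in both KO lists and neither WT list, with recognition sites of the enzymes in capitals.
Strongest KO-only region, chr11:109011786-109011986: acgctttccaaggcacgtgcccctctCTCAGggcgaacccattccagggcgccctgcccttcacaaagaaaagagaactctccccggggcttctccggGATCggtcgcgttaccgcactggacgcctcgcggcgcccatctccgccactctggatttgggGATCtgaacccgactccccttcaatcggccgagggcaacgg
Cdk8 intron, chr5:146261066-146261266: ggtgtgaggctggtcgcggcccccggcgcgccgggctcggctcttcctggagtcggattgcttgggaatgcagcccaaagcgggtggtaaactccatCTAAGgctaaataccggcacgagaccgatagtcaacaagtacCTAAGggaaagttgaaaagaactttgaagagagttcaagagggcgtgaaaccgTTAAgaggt
The last held a tract of purines, a feature frequent under the peaks, and was a WT-only region in Atp8a2 (a phospholipid flippase). Capitals mark the longest run of A and G.
Atp8a2, WT only, chr14:60040488-60040688: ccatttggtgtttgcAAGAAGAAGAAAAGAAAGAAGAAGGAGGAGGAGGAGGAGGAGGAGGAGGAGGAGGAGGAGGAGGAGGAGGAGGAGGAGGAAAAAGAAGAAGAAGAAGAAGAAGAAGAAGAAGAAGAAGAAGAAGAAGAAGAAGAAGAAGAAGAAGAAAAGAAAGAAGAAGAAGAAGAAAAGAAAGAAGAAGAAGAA

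By genomic class, KO ciR-loops were shifted towards gene starts and exons and away from the space between genes. Summits within 1000 bp of a transcript start made up 13.6% and 11.3% of the KO lists and 6.15% and 5.28% of the WT lists, where such positions make up 6.05% of the genome. Exons outside promoters held 4.48% and 3.54% of KO summits and 1.54% and 1.17% of WT summits, against 3.18% of the genome. The WT values rest on only 4 exon summits in each list, so the 95% Wilson interval of WT replicate 1 ran from 0.600% to 3.89%. Coding exon summits were 4.13% and 3.26% in the KO and 1.92% and 2.05% in the WT when promoters were not set aside. Introns held 38.7% and 37.2% of KO summits and 37.7% and 38.1% of WT summits, so the groups overlapped and both lay close to the genome's 38.3%. Positions outside genes took 43.2% and 48.0% in the KO and 54.6% and 55.4% in the WT, against 52.4% of the genome. Intervals of shares cover counting error only.

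**Figure D1:**
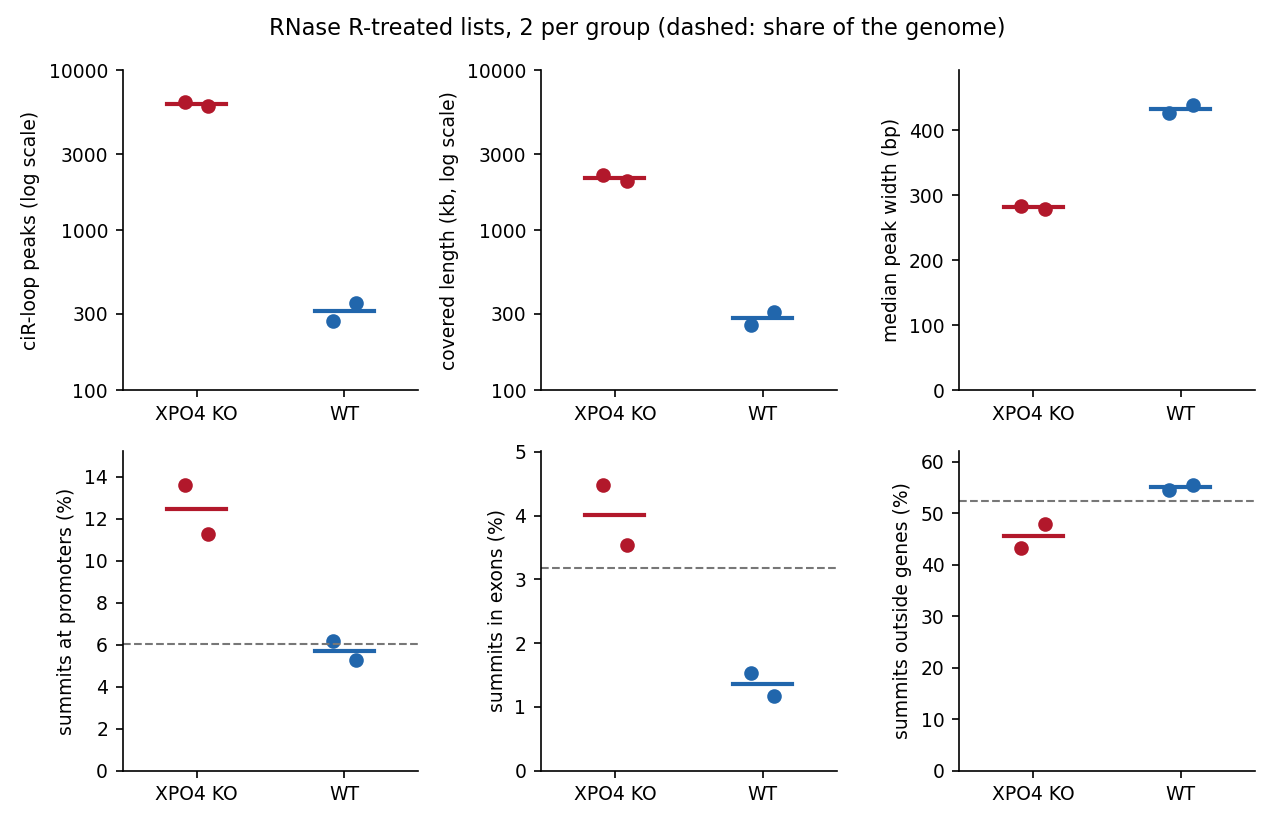
Measures of each list are plotted for XPO4 KO and WT, with points for the 2 replicates, bars for their mean, dashed lines for the share of the genome and log axes for peak number and covered length in kb. KO lists lay above WT lists in peaks, covered length, promoter and exon shares and below them in width and in the share outside genes.

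Promoters made up a larger share of the stronger KO peaks. Among peaks with a fold under 6 they made up 11.4% and 8.69% in the KO and 13.5% and 9.23% in the WT, so the KO was not higher there. Among those with a fold of 12 or more they made up 23.6% and 18.0% in the KO and 9.43% and 8.82% in the WT. The WT shares rest on few peaks, 37 and 65 under a fold of 6 and 53 and 68 at 12 or more. KO peaks found in the other KO replicate were at promoters in 16.9% and 17.1% of cases, against 11.7% and 7.64% of those found in 1 replicate. When each KO list was cut to the size of the same-numbered WT list, with the lowest p-values kept, the promoter share was 30.1% and 25.8%. KO promoter summits had a median GC content of 52.5% and 50.8%, compared with 44.2% and 43.2% for those outside genes. A G-quadruplex motif (4 runs of at least 3 G, joined by 1 to 7 bases, on either strand) was found near 18.9% and 17.8% of KO promoter summits. Over all summits it was found near 10.6% and 8.47% in the KO and 10.8% and 6.45% in the WT, so the groups overlapped, against 4.95% of 26477 genome windows of the same length placed every 100 kb. Each window reached 150 bp to either side of the summit.

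The restriction fragments under the summits differed widely between the genotypes. The recognition sites of the 4 enzymes predict the fragment that holds each summit, assuming complete digestion. In the KO its median length was 262 and 270 bp, and in the WT it was 981 and 986.5 bp, a KO to WT ratio of 0.270, while the median over genome points was 90 bp. Fragments of 200 to 400 bp held 56.9% and 59.8% of KO summits, whereas fragments above 1000 bp held 48.2% and 49.1% of WT summits. Only 0.0642% of genome points lay in fragments that long. No recognition site lay within 150 bp of 13.5% and 16.4% of KO summits and 63.5% and 65.7% of WT summits, against 0.808% of genome windows.

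Peak borders followed the predicted fragments in the KO. Both borders of a peak lay within 10 bp of the ends of the fragment that held its summit for 33.2% and 37.4% of KO peaks. The same was true of 1.20% and 1.51% of WT peaks, that is 3 and 5 peaks. Exactly 1 border met a fragment end in 38.0% and 37.8% of KO peaks and in 34.9% and 36.4% of WT peaks. Fragments shorter than the shortest peak of the list held 31.7% and 26.0% of KO summits, while 90.9% of genome points lay in fragments shorter than that KO limit. These measures were chosen after the data had been seen, and the part of the different background levels and shortest peaks of the lists in them was not tested. Cut to WT list sizes, the KO medians were 218 and 228 bp.

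**Figure D2:**
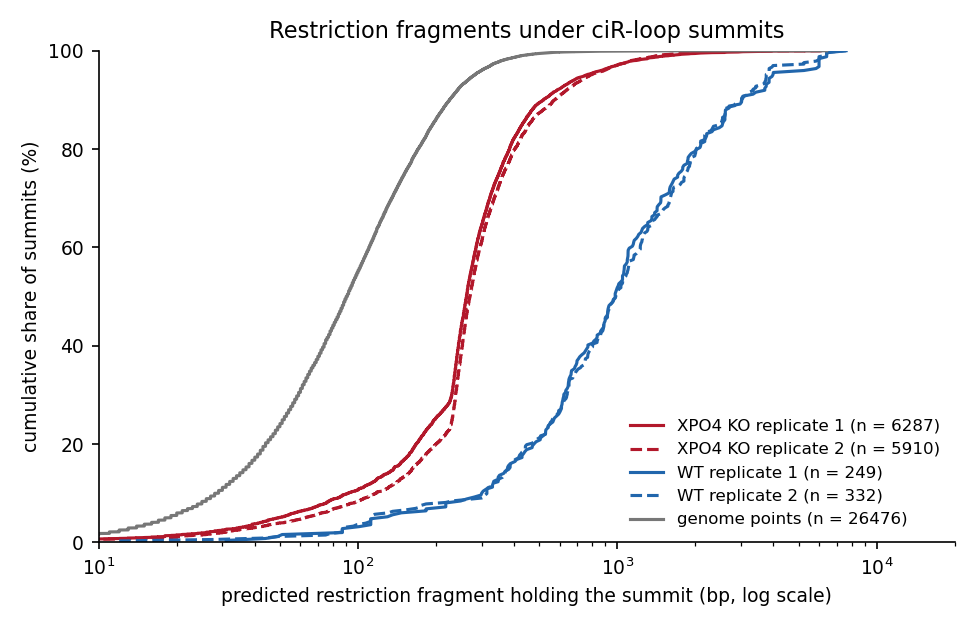
Cumulative share of summits (%) against the predicted restriction fragment length (bp, log scale) for the 2 XPO4 KO lists, the 2 WT lists and genome points. The KO curves rise steeply just above 233 bp, and the WT curves lie to their right with medians of 981 and 986.5 bp.

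Simple repeats were common under the ciR-loops of both genotypes. A perfect tandem repeat of at least 30 bases, with a unit of 1 to 6 bases, lay within 150 bp of 46.0% and 45.2% of KO summits and of 39.6% and 40.5% of WT summits, against 5.40% of genome windows. Runs of at least 30 purines on one strand were found near 52.8% and 54.5% of KO summits and 36.2% and 34.0% of WT summits, against 3.62% of genome windows. Units made of purines only, with at least 1 G, were 83.0% and 83.5% of the tandem repeats under KO summits and 60.2% and 63.8% of those under WT summits. In genome windows such units made up 33.2% of tandem repeats, and the most frequent unit there, AC, made up 37.5%.

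Single units differed in how the genotypes used them. The AAG repeat led in both, with 20.9% and 27.2% of KO tandem repeats and 23.3% and 29.0% of WT tandem repeats, so the groups overlapped. AG repeats were 18.4% and 12.9% in the KO and 0.971% and 3.62% in the WT. AAAG repeats were 17.5% and 16.5% in the KO and 4.85% and 2.17% in the WT. The longer unit AGAGGC made up a larger share of WT tandem repeats, at 10.7% and 12.3% against 2.17% and 1.16% in the KO, which were 11 and 17 WT summits and 63 and 31 KO summits. Units are written in one form for both strands and all starting points.

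Within the KO, the tracts belonged mainly to peaks away from promoters and exons. Purine tracts were near 65.4% and 64.2% of KO summits outside genes and 53.3% and 54.8% of those in introns. Near promoter summits the share was 22.4% and 23.6%, and near exon summits it was 19.5% and 20.5%. The strongest KO peaks had fewer of them: with a fold of 12 or more, 29.1% and 38.4% had a purine tract. When KO lists were cut to WT size the difference turned, with purine tracts near 18.0% and 28.8% of KO summits and tandem repeats near 28.1% and 32.1%, both below the WT lists. The higher KO shares of simple repeats thus belonged to the full lists.

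**Figure D3:**
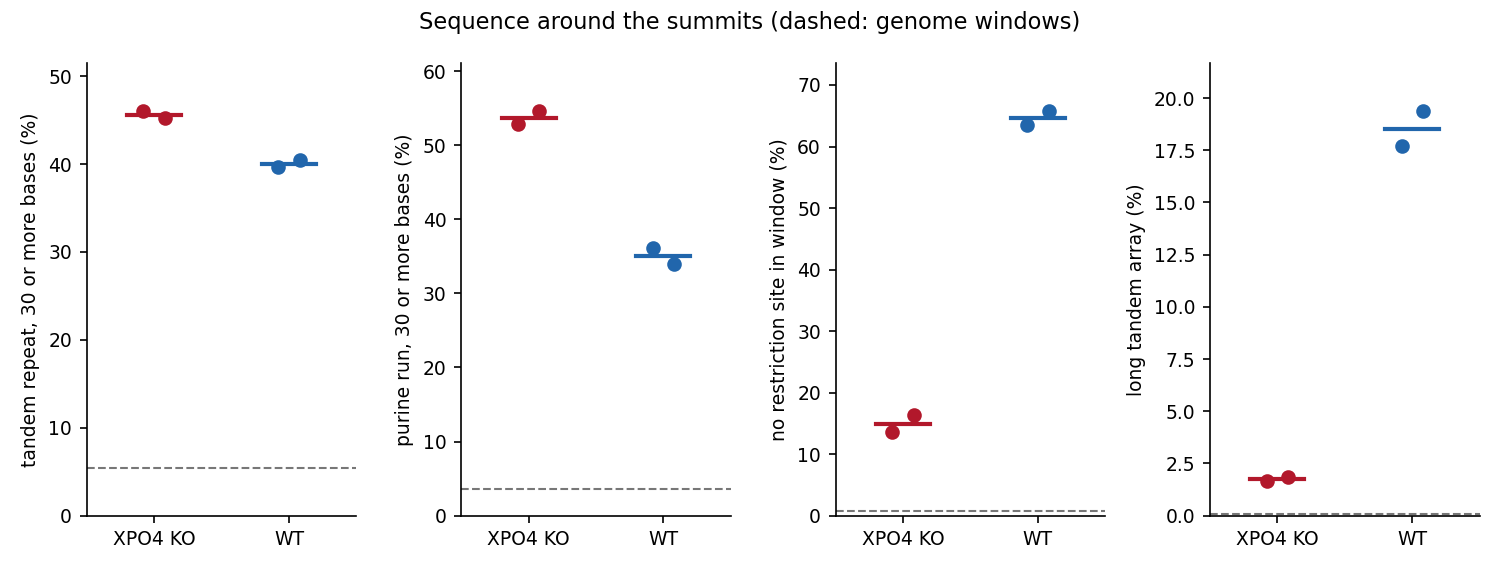
Percent of summits with a tandem repeat, a purine run, no restriction site in the window of 150 bp to either side, or a long tandem array, in each XPO4 KO and WT list (points) with their mean (bars) and the level in genome windows (dashed). KO lists were higher in the first 2 panels and lower in the last 2.

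WT ciR-loops more often lay in long tandem arrays. These are sequences that match themselves at a shift of 100 to 400 bp with at least 70% identity. The repeat unit can be shorter: the telomere repeat at the end of chromosome 18 reached 74.1% at a shift of 102 bp. How many arrays had a shorter unit was not tested. Long arrays were under 17.7% and 19.4% of WT summits and 1.65% and 1.84% of KO summits, against 0.0755% of genome windows. In numbers the order was different, with 104 and 109 KO summits and 46 and 66 WT summits, and at equal list sizes the KO share was 10.9% and 9.24%. A high expected level, above 3 times the lowest of the list, was found at 41.7% and 37.2% of WT peaks and 6.59% and 7.22% of KO peaks, but at equal list sizes at 50.9% and 43.5% of KO peaks, above both WT lists. The caller sets such a level from fragments around a peak or in a control. WT lists were also the more repeatable ones, with 63.1% and 47.2% of their peaks overlapping the other replicate against 36.8% and 39.2% in the KO, although equal list sizes gave 81.5% and 61.6% in the KO.

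Across chromosomes, KO summits were densest on chromosome 17, with 4.84 and 3.98 per Mb of assembled sequence, where the lowest autosome had 1.38 and 1.28. The X chromosome had 0.428 and 0.453 KO summits per Mb, below every autosome of both KO lists. In the WT its 0.0979 and 0.128 per Mb lay within the range of the autosomes, which was 0.0427 to 0.215 and 0.0729 to 0.231. The X thus held 1.11% and 1.25% of KO summits and 6.15% and 6.16% of WT summits, against 6.18% of the assembled sequence. Chromosome copy number differs in cell lines and was not analysed here.

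**Figure D4:**
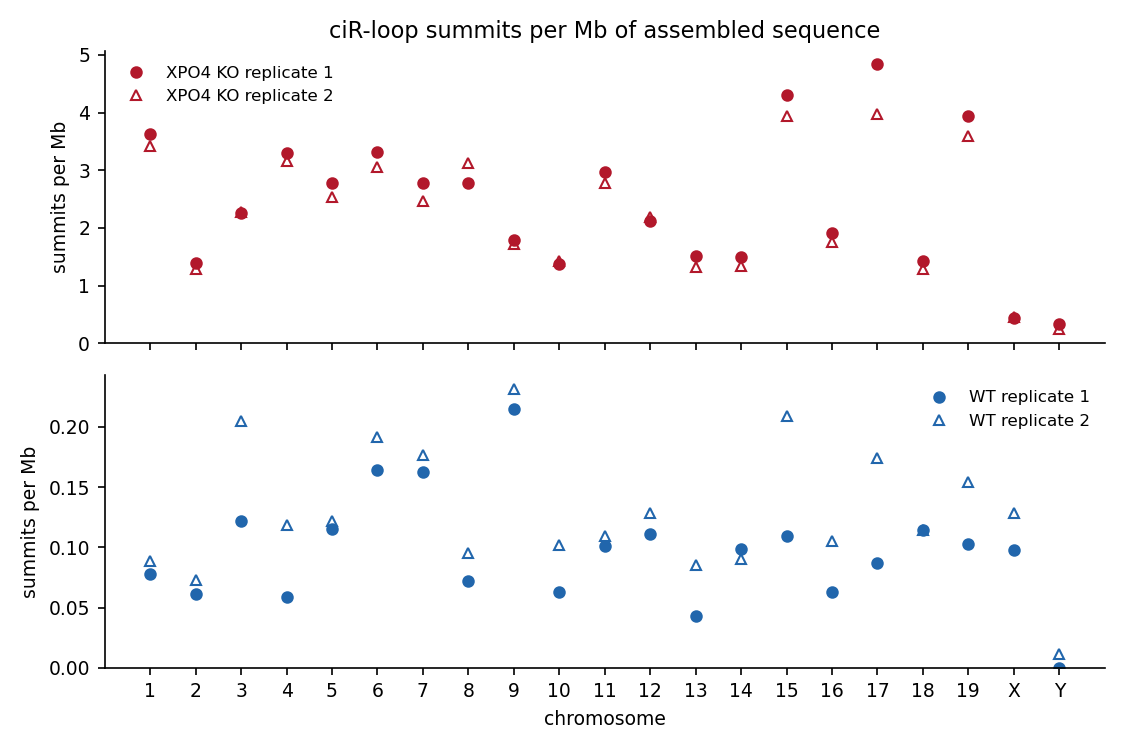
Summits per Mb of assembled sequence on each chromosome, for the 2 XPO4 KO lists (top) and the 2 WT lists (bottom, with a separate scale). In the KO the X and Y chromosomes lie below every autosome, and in the WT the X lies among the autosomes.

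The densest single megabase of the KO was 20 to 21 Mb of chromosome 8, with 50 and 44 summits and 0 in both WT lists. At 5 to 6 Mb of chromosome 19, which holds Malat1 and Neat1, the KO had 27 and 21 summits and the WT 0 and 0. On chromosome 6, 47 to 48 Mb was dense in both, with 33 and 30 KO summits and 16 and 17 WT summits. Among the megabases densest in the WT, 64 to 65 Mb of chromosome 7 had 13 and 11 WT summits and 4 and 2 KO summits. At 170 to 171 Mb of the X, 12 and 14 WT summits compared with 5 and 4 in the KO. The cluster of 41 annotated 5S ribosomal RNA genes on chromosome 8 held 12 and 15 KO peaks and 0 WT peaks, with best folds of 11.7 and 10.3.

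Merged over the 4 lists, the peaks formed 10186 regions. Of these, 2175 were called in both KO lists and neither WT list, 69 in both WT lists and neither KO list, and 69 in all 4. The KO-only regions lay in predicted fragments of 251 bp (median), the WT-only regions in fragments of 1531 bp and the shared regions in fragments of 963 bp. Promoters held 16.8% of the KO-only, 2.94% of the WT-only and 11.5% of the shared regions on assembled nuclear chromosomes. Long arrays were under 1.53%, 16.2% and 29.5% of them. At each pair of lists, 36.6% to 42.1% of WT peaks overlapped a KO peak, while 2.57% to 3.08% of KO peaks overlapped a WT peak.

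At the 69 regions called in all 4 lists, 18 had both KO folds above both WT folds and 35 had both below, which are 26.1% and 50.7% of them, and the median log2 ratio of KO to WT mean fold was -0.52. The direction followed the kind of sequence. All 9 regions of telomere repeats were higher in the KO (median log2 ratio 0.56), and all 8 regions of a satellite array, whose unit has the length of the mouse major satellite, were lower (median -1.71). Of 12 other long arrays, 1 was higher and 6 lower in the KO, and of 32 other regions 6 were higher and 16 lower. Of 7 regions on unplaced scaffolds, 1 was higher and 5 lower. These counts are a description, since the kinds were set after the regions had been seen.

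**Figure D5:**
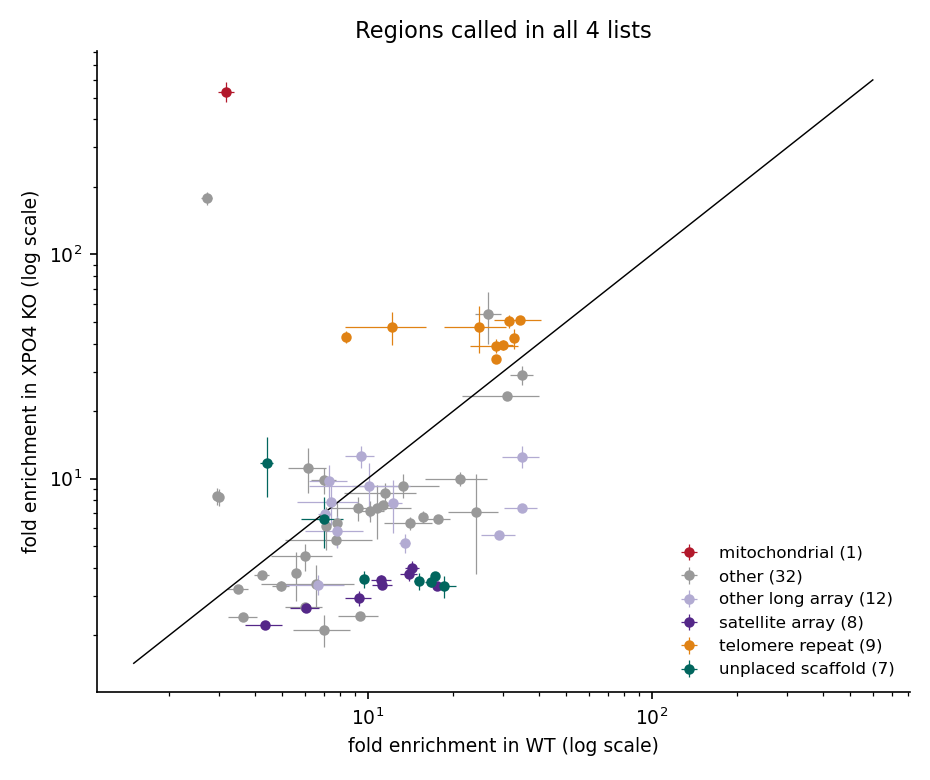
Mean fold enrichment in XPO4 KO against WT, both on log scales, for the 69 regions called in all 4 lists, coloured by kind of sequence, with lines spanning the 2 replicates and a diagonal of equal folds. Telomere repeats lie above the diagonal, satellite arrays below it, and the mitochondrial genome and a nuclear copy of it far above.

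Telomere repeats, the TTAGGG hexamer that caps chromosome ends, had high folds in both genotypes. Windows with at least 5 hexamers were under 26 and 22 KO summits and 11 and 10 WT summits, which were 0.413% and 0.371% of the KO summits and 4.23% and 2.93% of the WT summits, and 4 of the 26477 genome windows had as many. Within 1000 bp of the last base of the assembled sequence, the KO had such a summit on 11 and 10 chromosomes and the WT on 7 and 6. At the end of chromosome 7 the fold was 49.2 and 52.3 in the KO and 27.8 and 40.9 in the WT. The height behind it was 5322 and 5127 fragments in the KO and 232 and 354 in the WT. The expected level there also differed, at 107 and 97.0 in the KO and 7.38 and 7.69 in the WT, so the folds lay much closer than the heights. An internal telomere repeat in an intron of Ppp1r9a (neurabin, an actin-binding scaffold), chr6:4923774-4924203, had folds of 45.4 and 40.2 in the KO and 8.60 and 8.14 in the WT.

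Satellite arrays went the other way. At chr9:3036713-3038308 the fold was 3.21 and 3.46 in the KO and 17.7 and 17.4 in the WT. Over the satellite peaks of each list the median height was 3992 and 4232.5 fragments in the KO and 16695 and 22335.5 in the WT. The median expected level there was 1334 and 1258 in the KO and 1105 and 1685 in the WT, with the groups overlapping. The KO had more of these peaks, 34 and 32 against 9 and 8, but they were shorter, with medians of 469 and 542 bp against 1556 and 2286.5 bp. They covered 22.2 and 23.7 kb in the KO and 39.1 and 38.5 kb in the WT. Reads without a unique position had been removed by the authors. Whether copies of an array that differ slightly carry these counts was not tested.

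Of the 69 shared regions, the mitochondrial DNA had the largest ratio of KO to WT fold (log2 7.39). In the KO a single peak covered its 16299 bp with a fold of 477 and 585. In the WT 2 and 3 short peaks had a best fold of 2.96 and 3.38. Their heights were 11598 and 13023 fragments in the KO and 124 and 150 in the WT, with expected levels of 23.3 and 21.3 against 41.2 and 43.7. Without RNase R the best mitochondrial fold was 461 and 529 in the KO and 69.7 and 88.6 in the WT. The same order held at chr1:24611537-24616191, a nuclear copy of mitochondrial sequence, with folds of 165 and 190 in the KO and 2.83 and 2.59 in the WT. At the KO summits there, 100% of the 21-base words also occur in the mitochondrial genome, so reads of the 2 can hardly be told apart.

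Copies of organelle and ribosomal sequence were also present among the strongest KO-only regions. The region chr12:97061423-97061670 had folds of 106 and 112 and shared 82.9% and 82.6% of its 21-base words with mitochondrial DNA. Both peaks at an annotated promoter inside Myo3a (a motor protein of the inner ear) shared between 67.3% and 89.3% of theirs, and the best of them had folds of 68.6 and 77.2. On chromosome 6 a region at chr6:3200733-3201647, with folds of 97.2 and 83.1, shared 51.2% with an annotated copy of 18S ribosomal RNA. The strongest KO-only region of all, chr11:109011627-109012519, lay outside genes with folds of 299 and 264. Without RNase R it was also called in both WT lists, with folds of 20.4 and 30.3, while chr12:97061423-97061670 was called in neither. Copies of 28S ribosomal RNA, which belongs to the large subunit, were not searched for here. Whether the strongest KO-only region or the Cdk8 intron printed above is such a copy was therefore not tested.

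Other regions shared by all lists were in introns. At the Sos2 intron, chr12:69653892-69654424, the fold was 26.0 and 31.8 in the KO and 38.2 and 31.6 in the WT, so the groups overlapped. Mov10, an RNA helicase, had an intronic region (chr3:104798558-104799015) with folds of 24.2 and 22.4 in the KO and 21.5 and 40.2 in the WT, also overlapping. In Zswim6 (chr13:107858209-107860042) the KO folds of 13.9 and 11.1 were below the WT folds of 29.6 and 40.0. Long arrays in introns of Ndst3, a heparan sulphate sulphotransferase, and Ulk4, of the kinase family that also holds autophagy regulators, named after their values had been seen, were further apart. Ndst3 had 7.16 and 7.58 in the KO against 30.2 and 39.5 in the WT. Ulk4 had 5.37 and 5.82 against 33.0 and 25.1.

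Genes were counted where a summit fell in their body. KO lists had summits in 2835 and 2554 genes and WT lists in 103 and 127. Of 55413 annotated genes, 1347 (2.43%) had a summit in both KO lists and neither WT list, 15 (0.0271%) in both WT lists and neither KO list, and 39 (0.0704%) in all 4. Among 21938 protein-coding genes the first count was 1112 (5.07%). A further 1389 and 1116 genes had a summit in KO replicate 1 only and in KO replicate 2 only. Long non-coding genes contributed 94 lincRNAs and 51 antisense genes to the 1347.

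Gene length accompanied these counts. The KO-only genes had a median length of 58824 bp, against 3331 bp for all annotated genes, and the protein-coding ones 66830 bp against 17425 bp. The share of protein-coding genes counted rose from 1.98% below 10000 bp to 3.32%, 5.61% and 18.1% in the classes up to 30000 bp, up to 100000 bp and above. Genes with a WT summit showed the same order of classes, with 0.141%, 0.261%, 0.793% and 2.85%. In the KO-only coding genes, 68.4% and 69.9% of summits were in introns and 21.4% and 20.5% at promoters, while 5.64% and 5.46% were in coding sequence.

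Of the protein-coding genes with a summit in both KO lists and neither WT list, those with the most summits were mostly very long. Ptprd, a receptor tyrosine phosphatase of synapses (chr4:75941238-78211961), had 11 and 10 summits, all intronic, with best folds of 7.80 and 10.7. Cntnap5b, a contactin-associated neuronal membrane protein, had 6 and 6 with best folds of 34.3 and 23.9. Cemip, a hyaluronan-binding protein, had 9 and 6. Fgfr2, a fibroblast growth factor receptor whose annotated body spans 2960900 bp, had 6 and 5. Dlg2 (a synaptic scaffold) had 5 and 5, Vps13b (a lipid transfer protein) 4 and 5, Astn2 5 and 4, C130026I21Rik 4 and 4, and Cald1 (caldesmon, which binds actin) 6 and 4. Shorter genes of the same group were Sfi1 (a centrosome protein) with 8 and 6, Spaca6 (a sperm protein) with 5 and 5, and Gm10717, whose 6 and 6 peaks lie in the chromosome 9 satellite. The WT lists had 0 summits in every gene of this paragraph. Gm10717, however, lies inside chr9:3023269-3036397, a region called in all 4 lists, where the WT summit fell outside the gene. The best folds of that region were higher in the WT, at 14.9 and 13.0 against 3.49 and 4.01 in the KO.

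By fold, the leading KO-only genes had 1 to 3 peaks per KO list, and KO-only refers to the RNase R-treated lists. In Lars2, the mitochondrial leucyl-tRNA synthetase (chr9:123366927-123462666), the peak lay in the untranslated part of an exon with folds of 244 and 268 and heights of 468 and 506 fragments. Cdk8, a kinase of the Mediator complex (chr5:146231230-146302874), had an intronic peak with folds of 167 and 165, and its sequence is printed above. Whether this peak, that of Lars2 or those of the genes that follow lie in a copy of large-subunit ribosomal RNA was not tested. Gphn, the synaptic anchor gephyrin, had 90.4 and 83.6 in an intron. Others were Camk1d (a calmodulin-dependent kinase) with 62.4 and 54.2, Fhl2 (a LIM domain protein) with 59.0 and 73.0, and Ttc21b (a protein of cilia), whose peak had folds of 58.5 and 51.9 and lay in an internal telomere repeat. Without RNase R, the regions of Cdk8, Gphn and Lars2 were also called in both WT lists. The WT folds there were 122 and 125 in Cdk8, 48.9 and 74.2 in Gphn and 23.6 and 29.2 in Lars2. Those of Camk1d, Fhl2 and Ttc21b are not given here.

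The 8 genes with the highest folds among the 15 of both WT lists and neither KO list had 1 or 2 summits per list. Sipa1l1, which regulates a small GTPase, had 1 and 2 intronic summits with best folds of 13.3 and 14.1 at heights of 18 and 21 fragments. Elavl3, a neuronal RNA-binding protein, had folds of 11.2 and 11.9, Cenpo (a centromere protein) 12.5 and 9.72, and Dynlrb1 (a dynein light chain) 7.40 and 9.61. Ppp2r2b (a phosphatase subunit) and the overlapping AC099605.1 shared 1 intronic peak with folds of 11.6 and 15.3. AC126695.1 had 14.8 and 11.2, and 1700018B08Rik 10.8 and 12.4. Every one of these summits was intronic.

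Genes with a summit in all 4 lists did not always hold the same peak. Gm20388, annotated over 4434882 bp, had 24 and 31 KO summits and 1 and 2 WT summits. The overlapping lincRNAs 2700054A10Rik and AC174800.1 shared a cluster on chromosome 17, with 7 and 6 KO summits and 5 and 4 WT summits in the former. At a region called in all 4 lists, Vmn1r4, a vomeronasal receptor, had folds of 10.7 and 9.25 in the KO and 15.9 and 26.3 in the WT. Stx3, a membrane fusion protein, had 7.28 and 7.94 against 10.8 and 11.9 at another, so both WT folds were above both KO folds in these genes. At the shared region of Sema5b the folds of 7.80 and 9.52 in the KO and 8.22 and 14.8 in the WT overlapped. Dip2b and Spag16 held no region called in all 4 lists, so their best folds came from different peaks. In Dip2b they were 8.02 and 7.63 in the KO and 11.4 and 13.5 in the WT, and in Spag16 9.74 and 8.53 against 10.4 and 8.48.

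Gene lists were then counted beside the 2.43% of all genes and 5.07% of protein-coding genes. The lists were chosen with earlier results of these data known, so these shares are a description only. Of 22 genes of the actin cytoskeleton, 7 (31.8%) had a summit in both KO lists and neither WT list. They were Zyx (zyxin, of focal adhesions), Tpm1 and Tpm4 (tropomyosins), Actn4 (an actin crosslinker), Vcl and Tln1 (vinculin and talin, which anchor actin) and Myh9 (non-muscle myosin). Zyx had the highest folds, 29.1 and 21.8, at its promoter and in an intron. Tpm4 had 12.5 and 10.1 in coding sequence, and Tpm1 11.4 and 10.6 at a promoter. A WT summit was found in 1 other gene of the list, and 4 further genes had a summit in 1 KO list only. The median length of the list was 12542.5 bp, shorter than the 17425 bp of all protein-coding genes.

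Matrix genes of fibroblasts were counted in 6 of 24 cases (25.0%). These were Thbs1 (thrombospondin) with folds of 17.7 and 10.1, Fn1 (fibronectin) with 16.1 and 11.1, Dcn (decorin) with 10.9 and 6.35, Col1a1 with 8.56 and 9.52, Col5a1 with 8.32 and 5.51 and Ltbp1 with 6.24 and 6.88. Col1a1, which encodes a chain of type I collagen, had them at a promoter, and Fn1, Dcn, Col5a1 and Ltbp1 in introns. Col12a1 had a WT summit. Nuclear long non-coding RNAs were counted in 5 of 12 cases (41.7%). Malat1 (chr19:5795690-5802672), an abundant RNA of nuclear speckles, had 3 and 3 summits with best folds of 93.0 and 63.6, and Neat1, the scaffold of paraspeckles, had 2 and 3 with 18.2 and 16.7. Gas5 followed with 12.5 and 16.7, Snhg1 with 8.32 and 7.94, and Airn, an antisense RNA at an imprinted locus, with 8.32 and 6.44. The peaks hold no strand, so reads from Airn and from overlapping genes cannot be told apart.

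Known circRNA host genes were counted in 7 of 23 cases (30.4%), with no WT summit in any of the 23. The genes of the list were long, with a median of 135174 bp. Of all protein-coding genes above 100000 bp, 18.1% were counted in the same way and only 2.85% had a WT summit. Bnc2 had folds of 7.68 and 10.8, Pvt1 10.5 and 13.0, Foxp1 8.32 and 6.73, Rims2 8.32 and 6.88, Hipk2 6.65 and 8.68, Tulp4 5.68 and 5.15 and Slc8a1 5.01 and 7.20. Most of these summits were in introns. Of the other host genes, Specc1 had 1 intronic summit in KO replicate 2 with a fold of 5.82 and none in the other lists, and Adarb1 and Hipk3 had none in the 4 lists. Xpo4 itself, the deleted gene, also had none, and peak lists hold no value that could check the deletion. Of 23 nuclear transport receptors and regulators, 0 were counted, although 2 had a summit in 1 KO list. Of 25 factors of R-loop removal and DNA repair, 1 was counted, Dhx9 (a helicase that unwinds hybrids), with 7.05 and 8.28 in coding sequence.

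The RNase R- lists of the same cells show how many of these regions were called without the nuclease. KO ciR-loop peaks overlapped a peak of the KO RNase R- lists in 52.7% to 59.5% of cases, and a peak of the WT RNase R- lists in 7.91% to 10.1%. WT ciR-loop peaks overlapped the KO RNase R- lists in 27.8% to 31.7% and the WT RNase R- lists in 34.4% to 38.4%. The KO RNase R- lists held 26219 and 32031 peaks and the WT ones 3885 and 2171, and these sizes bear on each overlap. Even so, most WT ciR-loop peaks met no peak of either WT RNase R- list taken singly.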

How the data were processed

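DRIP-seq peak lists of the 4 RNase R-treated immunoprecipitates were analysed. The 4 untreated lists served for an overlap and for the folds of mitochondrial DNA and of some KO-only regions. The authors trimmed reads with cutadapt, aligned them to GRCm38 (mm10) with Bowtie2, removed duplicates, mismatched and non-uniquely mapped reads with SAMtools 1.1, and called peaks in single replicates with MACS2 (q 0.001). The control given to the caller is not stated. Non-unique filtering thins exact repeats, and calling single libraries makes peak numbers depend on each library. The deposited fold enrichment is a linear ratio made by the authors' caller, and the deposited p and q are -log10 values. The deposited score was not used. Inputs and spike-in reads were not analysed here. Some genes and sequences are not reported here.

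Whole heights and expected levels were recovered from fold and p for all peaks of the 4 lists, after the script had been tested on simulated data. Summits were classed by GENCODE M21 genes, with promoters reaching 1000 bp to either side of each transcript start. Sequence came from RefSeq GRCm38.p6. Regions were shared at 1 bp of overlap, and the code was checked against bedtools 2.31.1. Python 3.11.15, numpy 2.4.6, pandas 2.3.3 and scipy 1.17.1 were used, with exact two-sided permutation tests over lists and Benjamini-Hochberg adjustment over 17 measures. Genes were named by number of lists, number of summits and fold. Members, gene lists and measures were chosen with earlier results of these data known. Alternatives were stricter q or fold limits, the p limit of the WT lists, no high expected levels, equal list sizes, scaled heights, 3 other annotation settings, a 50% reciprocal overlap, leaving out each list, and the replicate number as a block. Purine tract, restriction fragment, array and X chromosome shares, WT-only genes and scaled shares were added after seeing the data.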

Additional observations from a re-analysis of the deposited data

How the results depend on the processing

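Peak number, covered length, GC content, promoter, exon, outside-gene, array and X chromosome shares, restriction fragment length and the share without a site kept their direction under each alternative run. Leaving out 1 list gave log2 ratios of 4.13 to 4.51 for peak number and promoter differences of 5.57 to 7.87 points. The intron difference, 0.0424 points, turned to -0.0613 (stricter q), -5.68 (fold of at least 8), -0.0567 (p limit of the WT lists), -5.52 (no high expected levels), -11.1 (equal list sizes), -3.43 (scaled heights), -0.608 (protein-coding genes), and ran from -0.716 to 0.80 with 1 list left out. Median width, a log2 ratio of -0.62, came to -0.03 at equal sizes (447 and 404.5 bp against 427 and 439.5 bp, overlapping). Tandem repeats turned to -2.67 at a fold of at least 8 and -9.98 at equal sizes, and purine tracts to -11.7 at equal sizes. Equal sizes also turned the log2 ratio of median folds to 1.07 (scaled heights: 0.15), high expected levels to 7.74 points and the share found in the other replicate to 16.5 (no high levels: 3.71), which cannot be recomputed without 1 list of a group. KO-only genes numbered 422 at a fold of at least 8, 82 at equal sizes, 581 with scaled heights and 1357 to 2736 with 1 list left out. WT-only genes numbered 23, 46, 25 and 16 to 36, and 9 without high levels. WT peaks overlapped by KO peaks, 39.7% on average, came to 17.7% at a fold of at least 8, 23.8% without high levels, 14.6% at equal sizes, 27.6% with scaled heights and 24.4% at 50% reciprocal overlap. The log2 ratio at shared regions was -0.92 as height over background and -0.64 to -0.47 with 1 list left out. The causes were not tested, except that equal sizes keep the strongest KO peaks only. With the replicate block (paired lists), the log2 ratio of peak numbers was 4.32, with an exact sign-flip p of 0.5, the smallest for 2 pairs. The numbers did not pair the samples (r = -0.0699 over 69 regions). WT shares rest on 260 and 341 nuclear summits, which limits their precision.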
